A study of Mus musculus with 16 samples.

Results

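Glp2r, Mamstr, Sbsn and 4833420G17Rik are 4 genes of the mouse hippocampus whose RNA was higher after lipopolysaccharide (LPS) in wild-type (WT) mice and not in mice with the TSPOKO genotype. They were chosen by that measured pattern, from the row of each gene in the table of estimated counts, and because they lie outside the classic immune families. They are 4 of 19449 genes listed, and all 4 were among the 16269 genes that passed the filter on low counts. The series holds 16 libraries of total RNA from the hippocampus of mice aged 3 months, 4 in each group. The groups are KO mice injected with LPS, WT mice injected with LPS, KO mice injected with PBS and WT mice injected with PBS. KO stands for TSPOKO, the only description of the deletion in the labels, so neither the deleted part of Tspo nor the cells that lose it is stated. The dose of LPS and the time after injection are not given in the labels.

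LPS is a cell wall component of Gram-negative bacteria that is sensed by TLR4 and starts an inflammatory response. Tspo encodes the translocator protein of the outer mitochondrial membrane, which is widely used as a marker of reactive glia. The 4 genes belong to different systems. Glp2r encodes the receptor of glucagon-like peptide-2, a gut hormone that maintains the intestinal lining, and is a class B G-protein-coupled receptor that raises cAMP through Gs. Mamstr encodes MASTR, a protein of the myocardin-related kind that binds MEF2 transcription factors and is known from skeletal muscle. Sbsn encodes suprabasin, a secreted protein of the upper epidermis. 4833420G17Rik is a protein-coding gene that carries the name of a RIKEN cDNA clone.

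Library totals ran from 30198619 to 50009041 counts. The labels leave it unstated whether replicates came from separate animals, so each p-value measures the spread between these libraries, which may be technical. Tspo averaged 0.334 ± 0.12 CPM in KO LPS libraries and 8.51 ± 4.06 CPM in WT LPS libraries (CPM are counts scaled to library size; SD, n = 4 each). It averaged 0.807 ± 1.02 CPM in KO PBS libraries and 3.09 ± 1.41 CPM in WT PBS libraries (SD, n = 4 each). The library labelled KO PBS replicate 1 held 98 Tspo counts, or 2.33 CPM, against its label, while the other KO PBS libraries held 5, 10 and 14 counts. WT LPS replicate 1 also stood apart, with 0.641 CPM of Lcn2, the gene of the acute-phase protein lipocalin-2, where the other WT LPS libraries held 209 to 238 CPM. The levels of the 4 genes in both libraries are given below. Markers of hippocampal neurons were present in every group: all 11 of a list of 11 were tested, and they summed to 653 to 1260 CPM over the 16 libraries.

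The promoters of the 4 genes are shown because the genes were high in the same libraries. Each runs from 250 bases before to 50 bases after the gene's start as RefSeq gives it on GRCm38.p6, and was read 5′ to 3′ on the gene's own strand. Capitals mark matches to motifs of factors that act in inflammation or below the 4 genes' systems. The regions are chr11:67771104-67771403 on the minus strand for Glp2r, chr7:45639727-45640026 on the plus strand for Mamstr, chr7:30751221-30751520 on the plus strand for Sbsn and chr13:119462509-119462808 on the plus strand for 4833420G17Rik.
Glp2r: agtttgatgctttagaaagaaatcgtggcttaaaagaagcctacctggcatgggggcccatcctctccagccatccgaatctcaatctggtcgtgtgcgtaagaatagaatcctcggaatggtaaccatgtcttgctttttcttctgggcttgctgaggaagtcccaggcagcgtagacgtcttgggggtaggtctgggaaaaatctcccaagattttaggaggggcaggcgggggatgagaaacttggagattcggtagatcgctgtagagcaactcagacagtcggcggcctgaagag
Mamstr: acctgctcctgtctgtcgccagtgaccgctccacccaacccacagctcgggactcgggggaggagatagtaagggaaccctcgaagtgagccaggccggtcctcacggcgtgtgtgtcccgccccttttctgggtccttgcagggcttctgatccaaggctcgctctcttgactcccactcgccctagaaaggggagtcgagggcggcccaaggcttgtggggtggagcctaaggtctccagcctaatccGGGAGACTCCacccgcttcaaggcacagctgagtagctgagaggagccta
Sbsn: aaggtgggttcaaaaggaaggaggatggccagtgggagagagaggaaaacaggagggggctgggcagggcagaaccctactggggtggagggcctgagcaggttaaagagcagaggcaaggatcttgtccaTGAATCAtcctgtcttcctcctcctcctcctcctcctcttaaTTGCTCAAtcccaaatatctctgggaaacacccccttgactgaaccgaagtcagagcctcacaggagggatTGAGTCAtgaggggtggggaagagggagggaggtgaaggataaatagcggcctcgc
4833420G17Rik: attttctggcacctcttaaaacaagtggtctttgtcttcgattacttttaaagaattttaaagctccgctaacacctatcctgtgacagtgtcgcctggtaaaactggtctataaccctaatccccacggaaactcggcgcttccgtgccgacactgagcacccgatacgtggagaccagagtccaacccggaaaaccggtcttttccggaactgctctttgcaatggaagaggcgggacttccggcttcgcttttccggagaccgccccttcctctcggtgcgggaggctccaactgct
Of 10 motifs searched on both strands, 3 had a match. The Mamstr window held 1 kappaB match, the motif of NF-kappaB, at bases 1 to 10 from the start, and 4.51% of the 32851 RefSeq promoters held one. The Sbsn window held 2 AP-1 matches (TGANTCA, in 7.81% of promoters), at bases -119 to -113 and from base -6 to base 1. It also held 1 C/EBP match (TTGCNNAA, 10.8%) at bases -77 to -70. The Glp2r and 4833420G17Rik windows held none of the 10. The motifs with no match in any of the 4 windows were the STAT site GAS (TTCNNNGAA, 8.3% of promoters), the cAMP response element (TGACGTCA, 1.79%), the E-box (CACGTG, 7.15%) and the glucocorticoid receptor half-site (TGTTCT, 19.0%). The IRF motif (GAAANNGAA, 8.56%), the CArG box of serum response factor (1.63%) and the TATA box (TATAAA, 13.6%) had no match either. A match describes these letters and is not a bound site. The GC content of the 4 windows was 51.3%, 62.7%, 55.3% and 52.3% in the order printed, around a median of 52.7% over all promoters. The windows held 12, 15, 3 and 20 CpG dinucleotides, where the median was 7, so Sbsn alone of the 4 lay below it.

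Glp2r had the largest difference of the 4 genes. The gene (ENSMUSG00000049928) has 2 transcripts in GENCODE M21, within chr11:67661502-67771153 of GRCm38 on the minus strand. Its level was 3.04, 1.78, 3.45 and 3.55 CPM in the 4 KO LPS libraries and 8.06, 13.2, 19.6 and 20.3 CPM in the 4 WT LPS libraries, in the order of their replicate numbers. It was 2.63, 2.12, 3.28 and 2.95 CPM in the KO PBS libraries and 4.29, 1.9, 2.09 and 1.07 CPM in the WT PBS libraries. Every WT LPS library lay above the other 12 libraries, the lowest of them 1.88 times the highest of those, and the remaining 3 groups overlapped. The group means were 2.96 ± 0.814 CPM in KO LPS, 15.3 ± 5.77 CPM in WT LPS, 2.75 ± 0.491 CPM in KO PBS and 2.34 ± 1.38 CPM in WT PBS (SD, n = 4 each). Between WT LPS and WT PBS libraries the log2 fold change was 2.71 ± 0.38 (SE), or 6.54-fold. In the knockout the same difference was 0.10 ± 0.37, and between KO LPS and WT LPS libraries it was -2.37 ± 0.37. These 3 values contain the choice of the gene and carry no test.

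Glp2r shares reads with few other genes. It overlaps Gas7 on the opposite strand over 66 exon bases, and 40 of its 5795 distinct 31-base words (0.69%) also occur in Gas7 transcripts. The sources used here do not say whether the counting used strand. Gas7, the growth arrest-specific gene 7, averaged 497 ± 38.4 CPM in KO LPS, 510 ± 48.8 CPM in WT LPS, 498 ± 24.3 CPM in KO PBS and 471 ± 59.4 CPM in WT PBS (SD, n = 4 each). Its difference of 0.11 ± 0.09 between WT LPS and WT PBS did not pass (adjusted p = 0.472, edgeR). Rcvrn, the retinal calcium sensor gene recoverin, lies within the bounds of Glp2r with no shared exon base and reached at most 27 counts in a library.

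Mamstr was the least abundant of the 4 genes in wild type after LPS. The gene (ENSMUSG00000042918) lies at chr7:45639977-45646521 on the plus strand, with 6 transcripts. The KO LPS libraries held 1.58, 1.8, 1.67 and 1.58 CPM, and the WT LPS libraries held 2.66, 3.12, 3.79 and 3.07 CPM. The KO PBS libraries held 2.14, 2.46, 2.3 and 2.32 CPM, and the WT PBS libraries held 1.86, 2.02, 1.53 and 2.21 CPM. All 4 WT LPS libraries were above the other 12, by a narrow margin of 1.08 times between the lowest of them and the highest other library, and all 4 KO LPS libraries were below all 4 KO PBS libraries. Its counts ran from 46 to 156 per library. The means were 1.66 ± 0.106 CPM in KO LPS and 3.16 ± 0.469 CPM in WT LPS, and 2.3 ± 0.132 CPM in KO PBS and 1.9 ± 0.289 CPM in WT PBS (SD, n = 4 each). The log2 fold change of LPS over PBS was 0.73 ± 0.14 (1.66-fold) in wild type and -0.47 ± 0.14 in the knockout, and that of KO over WT under LPS was -0.93 ± 0.14.

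Sbsn had a similar pattern at a higher level. The gene (ENSMUSG00000046056) lies at chr7:30751471-30756134 on the plus strand, with 5 transcripts. Its level was 8.71, 8.63, 7.4 and 8.76 CPM in KO LPS libraries and 11.8, 15.2, 12.6 and 11.8 CPM in WT LPS libraries. It was 9.25, 9.43, 9.99 and 10.4 CPM in KO PBS libraries and 7.57, 7.15, 8.1 and 9.61 CPM in WT PBS libraries. The WT LPS libraries were again above the other 12, the lowest at 1.13 times the highest of those, and the KO LPS libraries were below the KO PBS libraries without overlap. The means were 8.38 ± 0.651 CPM in KO LPS and 12.8 ± 1.62 CPM in WT LPS, and 9.76 ± 0.512 CPM in KO PBS and 8.11 ± 1.08 CPM in WT PBS (SD, n = 4 each). The log2 fold change of LPS over PBS was 0.66 ± 0.11 (1.58-fold) in wild type and -0.22 ± 0.11 in the knockout, and that of KO over WT under LPS was -0.62 ± 0.11. Of its 3144 distinct 31-base words, 250 (7.95%) also occur in Tmem147os, a noncoding transcript that shares 279 exon bases with Sbsn on the same strand and that the table does not list.

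4833420G17Rik was the most abundant of the 4 genes, and its replicates varied little, with a coefficient of variation of 4.41% to 5.9% in the 4 groups, where that of Glp2r was 17.9% to 59.0%. The gene (ENSMUSG00000062822) lies at chr13:119462768-119486120 on the plus strand, with 6 transcripts. The KO LPS libraries held 35.3, 33.5, 31.7 and 33.6 CPM, and the WT LPS libraries held 45.6, 49.1, 43.9 and 43.0 CPM. The KO PBS libraries held 33.4, 37.5, 37.3 and 34.3 CPM, and the WT PBS libraries held 35.5, 33.6, 34.7 and 31.4 CPM. The WT LPS libraries lay above the other 12, the lowest at 1.15 times the highest of those, and the other 3 groups overlapped. The means were 33.5 ± 1.48 CPM in KO LPS and 45.4 ± 2.68 CPM in WT LPS, and 35.6 ± 2.09 CPM in KO PBS and 33.8 ± 1.74 CPM in WT PBS (SD, n = 4 each). The log2 fold change of LPS over PBS was 0.43 ± 0.06 (1.34-fold) in wild type and -0.09 ± 0.06 in the knockout, and that of KO over WT under LPS was -0.44 ± 0.06. Of its 4966 distinct 31-base words, 517 (10.4%) also occur in other genes, most of them in Gm9752. This is a noncoding transcript on the opposite strand that shares 524 exon bases with 4833420G17Rik and that the table does not list.

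**Figure D1:**
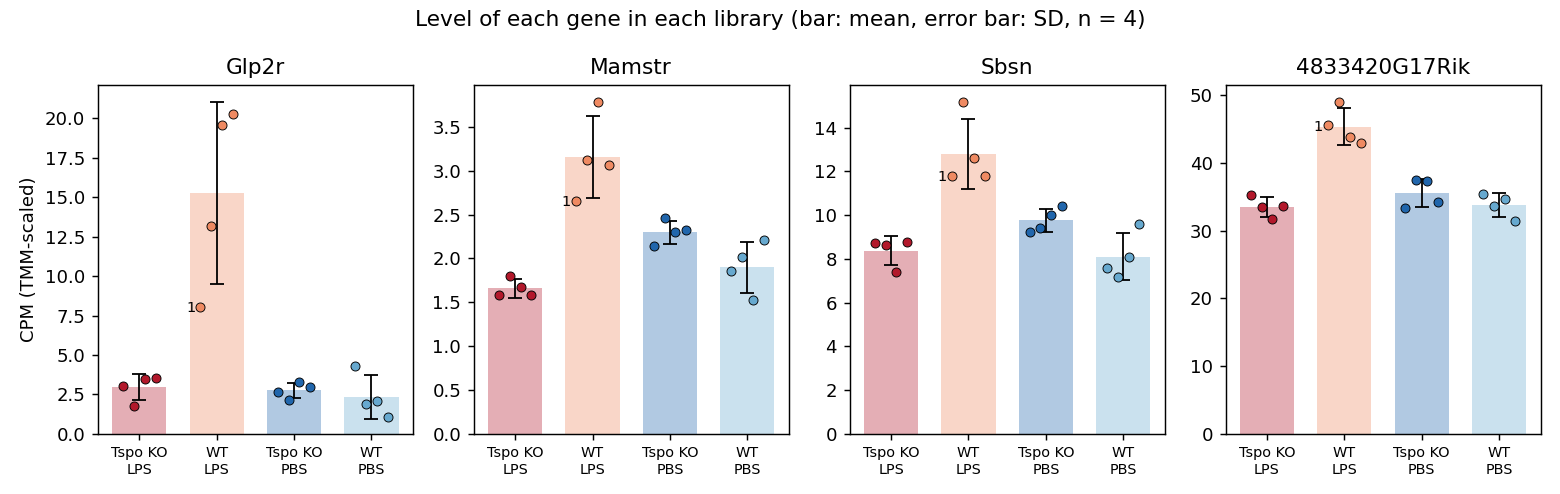
Level of Glp2r, Mamstr, Sbsn and 4833420G17Rik in CPM on the y axis, by group on the x axis; each point is a library, the bar is the group mean and the error bar the SD (n = 4), and the digit 1 marks WT LPS replicate 1. In all 4 panels each WT LPS library lies above the other 12 libraries, and WT LPS replicate 1 is the lowest of its group for Glp2r (8.06 CPM) and Mamstr (2.66 CPM).

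Set per kilobase of exon, the mean level in WT LPS libraries was 2.63 CPM per kb for Glp2r, 0.648 for Mamstr, 3.54 for Sbsn and 9.3 for 4833420G17Rik. In WT PBS libraries these levels were 0.402, 0.39, 2.24 and 6.92 CPM per kb. On this scale Glp2r and Mamstr were close to each other in WT PBS libraries, and Glp2r stood between Mamstr and Sbsn in WT LPS libraries. For Glp2r the order of group means below WT LPS was KO LPS, KO PBS and WT PBS, with each neighbouring pair overlapping. For Mamstr and 4833420G17Rik it was KO PBS, WT PBS and KO LPS, again with each neighbouring pair overlapping. For Sbsn it was KO PBS, KO LPS and WT PBS, where KO LPS lay apart from KO PBS and overlapped WT PBS.

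Over all genes tested, 768 (4.72%) passed and were higher in WT LPS than in WT PBS libraries, and 626 (3.85%) passed and were lower (edgeR's quasi-likelihood F test with Benjamini-Hochberg adjustment at 0.05). Passing means an adjusted p under 0.05 throughout. By the size of the log2 fold change, Glp2r was the 55th of those 768, Mamstr the 420th, Sbsn the 441st and 4833420G17Rik the 537th, so 3 of the 4 had modest changes among them. These counts rest on the spread shared by all 16 libraries: a fit of only the 8 wild-type libraries passed 0 genes, with 3012 at an unadjusted p under 0.05. The WT LPS libraries lay above all 4 WT PBS libraries in 686 genes (4.22%) and above the other 12 libraries in 224 genes (1.38%). All 4 genes are in both counts, which their choice made likely, so this carries no weight. In KO LPS against WT LPS libraries, 750 genes (4.61%) passed and were higher and 1185 (7.28%) passed and were lower. In KO LPS against KO PBS libraries, 0 genes (0.0%) passed by edgeR, with 1120 at an unadjusted p under 0.05 and 3 passing by DESeq2.

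**Figure D2:**
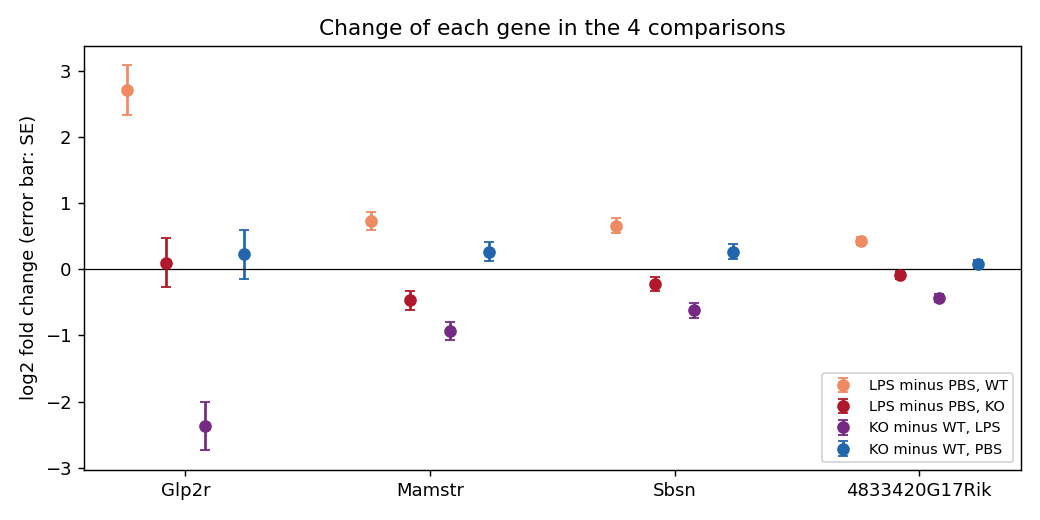
Log2 fold change of each gene (y axis; error bar, SE) in the 4 comparisons given by colour, with LPS minus PBS in wild type (WT) and in the knockout (KO), and KO minus WT under LPS and under PBS. The wild-type response runs from 0.43 for 4833420G17Rik to 2.71 for Glp2r, while the knockout response is at or below 0.10 for all 4 genes.

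The 4 genes differed in how their KO LPS libraries stood against their KO PBS libraries. Mamstr and Sbsn were lower in every KO LPS library than in every KO PBS library, a separation found in 571 genes (3.51%), and Glp2r and 4833420G17Rik overlapped. The intervals of the knockout change were -0.62 to 0.83 for Glp2r, -0.75 to -0.19 for Mamstr, -0.43 to -0.01 for Sbsn and -0.20 to 0.03 for 4833420G17Rik (95% intervals, log2). They are normal intervals, narrower than the F test would give, so the narrow exclusion of no change for Sbsn is not evidence of a fall. The WT LPS libraries were above all others in 224 genes, and in 11 of these the KO LPS libraries were also below the KO PBS libraries. Mamstr and Sbsn were among these 11. All 4 genes are among the 224, so the share of the 11 over all genes tested (0.0676%) reflects the choice of the genes as well. The absence of a rise in the knockout was part of the choice of the 4 genes, so none of these values is a test of it. The KO PBS group includes the library labelled KO PBS replicate 1. Without it the knockout change was 0.08 for Glp2r, -0.50 for Mamstr, -0.25 for Sbsn and -0.12 for 4833420G17Rik, in the same directions.

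The comparison of KO with WT under PBS was not itself used to choose the genes. Both of its groups entered that choice, as the PBS side of the comparisons within each genotype, so its p-values are not independent of the choice. It asks whether the genes differed by genotype before the challenge. None of the 4 passed, and in each the KO PBS and WT PBS libraries overlapped. For Mamstr the overlap rested on the library labelled KO PBS replicate 1 (2.14 CPM), since the other KO PBS libraries (2.3 to 2.46 CPM) were above the highest WT PBS library (2.21 CPM). Without that library the log2 fold change of Mamstr was 0.30 and did not pass (adjusted p = 0.861, edgeR). For Sbsn the overlap rested on WT PBS replicate 4 (9.61 CPM). The other WT PBS libraries (7.15 to 8.1 CPM) were below the lowest KO PBS library (9.25 CPM). Without WT PBS replicate 4 the log2 fold change was 0.36 for Sbsn (adjusted p = 0.213, edgeR) and 0.35 for Mamstr (adjusted p = 0.356, edgeR). Neither passed. The log2 fold change was 0.23 ± 0.37 for Glp2r (adjusted p = 0.947, edgeR; 95% interval -0.50 to 0.97) and 0.27 ± 0.14 for Mamstr (adjusted p = 0.918, edgeR; -0.01 to 0.55). It was 0.27 ± 0.11 for Sbsn (unadjusted p = 0.0246, adjusted p = 0.918, edgeR; 0.06 to 0.48) and 0.08 ± 0.06 for 4833420G17Rik (adjusted p = 0.921, edgeR; -0.04 to 0.19). The interval for Glp2r does not exclude a difference close to 2-fold on its upper side. Over all genes tested, 6 (0.0369%) passed in this comparison, and in 238 (1.46%) every KO PBS library was above every WT PBS library.

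WT LPS replicate 1 belongs to the group whose high level chose the 4 genes. Its place above the WT PBS libraries was made likely by that choice and is given as a description. Its Lcn2 and Tspo levels differed from those of the rest of the group. Taken as log2 CPM over the WT PBS mean, Glp2r stood at 1.93 in replicate 1 and at 2.64, 3.21 and 3.26 in replicates 2, 3 and 4. Mamstr stood at 0.48 in replicate 1 and at 0.71, 0.99 and 0.68 in the others, and Sbsn at 0.54 and at 0.91, 0.64 and 0.54. 4833420G17Rik stood at 0.43 in replicate 1 and at 0.54, 0.38 and 0.35 in the others, so that replicate 1 was within their range. As a share of the mean rise in replicates 2 to 4, the rise in replicate 1 was 63.7% for Glp2r, 60.7% for Mamstr, 77.7% for Sbsn and 103% for 4833420G17Rik.

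**Figure D3:**
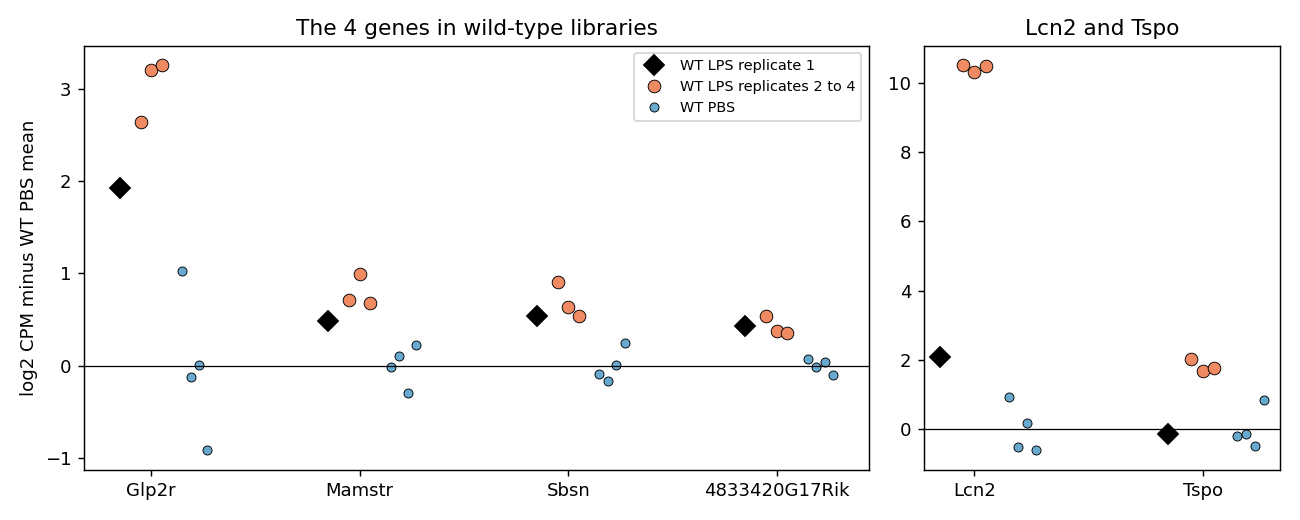
Log2 CPM minus the WT PBS mean (y axis) for the 4 genes on the left and for Lcn2 and Tspo on the right, with WT LPS replicate 1 as a diamond, WT LPS replicates 2 to 4 as large circles and WT PBS libraries as small circles. Replicate 1 is at 0.43 to 1.93 for the 4 genes, which were chosen for high levels in this group. It is at -0.14 for Tspo and at 2.08 for Lcn2, which were not chosen that way.

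The sample titles carry codes of unstated meaning, and groups and codes are largely confounded. Counts of Y-linked genes were high in 1 WT PBS, 1 WT LPS, 2 KO PBS and 2 KO LPS libraries. WT LPS replicate 1 shares its code with WT PBS replicate 4. Within this pair the LPS library was higher for each gene. Glp2r was 8.06 CPM in WT LPS replicate 1 and 1.07 CPM in WT PBS replicate 4 (log2 difference 2.86), and Mamstr was 2.66 and 2.21 CPM in these libraries (0.26). Sbsn was 11.8 CPM in WT LPS replicate 1 and 9.61 CPM in WT PBS replicate 4 (0.29), and 4833420G17Rik was 45.6 and 31.4 CPM (0.54). WT LPS replicates 2, 3 and 4 share another code with the library labelled KO PBS replicate 4. That library held 2.95 CPM of Glp2r, 2.32 of Mamstr, 10.4 of Sbsn and 34.3 of 4833420G17Rik, and the lowest of the 3 WT LPS libraries held 13.2, 3.07, 11.8 and 43.0 CPM of the same genes. Each code gives 1 library on 1 side, so these are values with no test.

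Of the 4 genes, Mamstr lay beside genes that passed in the same direction. Rasip1, a gene of endothelial vessel formation that ends 883 bases before Mamstr on the same strand, averaged 6.71 ± 0.498 CPM in KO LPS, 14.3 ± 4.21 CPM in WT LPS, 6.49 ± 0.582 CPM in KO PBS and 8.05 ± 1.02 CPM in WT PBS (SD, n = 4 each). It rose in WT LPS against WT PBS by 0.83 ± 0.18 (log2, SE; adjusted p = 0.0119, edgeR), and was lower in KO LPS than in WT LPS (-1.09 ± 0.18, adjusted p = 0.00357). Its level in WT LPS replicate 1 was 8.31 CPM, within the WT PBS range of 7.03 to 9.34 CPM. The next genes on that side were named after their values were seen. Bcat2, the mitochondrial branched-chain aminotransferase, rose by 0.48 ± 0.09 (adjusted p = 0.0061), and Plekha4, a gene of a pleckstrin homology domain protein, by 1.26 ± 0.27 (adjusted p = 0.011). Both were higher in WT LPS than in WT PBS libraries without overlap, with 13.9 to 17.7 against 10.6 to 12.6 CPM for Bcat2 and 2.75 to 3.79 against 1.13 to 1.57 CPM for Plekha4. With only the 8 wild-type libraries fitted, the adjusted p was 0.117 for Rasip1, 0.0823 for Bcat2 and 0.0815 for Plekha4.

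On the other side of Mamstr, the fucosyltransferase gene Fut2 did not pass (-0.36 ± 0.48, adjusted p = 0.707, edgeR). The nearest tested genes outside the bounds of the other 3 did not pass in this comparison either. They were Myh13 (-0.30 ± 0.53) and Usp43 (-0.07 ± 0.26) around Glp2r, Tmem147 (-0.19 ± 0.07) and Dmkn (-0.60 ± 0.62) around Sbsn, and Paip1 (-0.10 ± 0.06) and Tmem267 (-0.08 ± 0.24) around 4833420G17Rik. Genes that overlap 1 of the 4 were left out of this order. Gas7 and Rcvrn, which overlap Glp2r, did not pass (adjusted p = 0.472 and 0.643, edgeR). Dmkn encodes dermokine, like suprabasin a secreted protein of the upper epidermis. It averaged 1.71 ± 0.477 CPM in KO LPS, 0.58 ± 0.306 CPM in WT LPS, 1.53 ± 0.831 CPM in KO PBS and 0.885 ± 0.794 CPM in WT PBS (SD, n = 4 each), so its higher means were those of the knockout groups. Of the 3 nearest genes on either side of each, 2 others passed, both lower in WT LPS than in WT PBS: Mag, an oligodendrocyte gene near Sbsn (-0.89 ± 0.19), and Hmgcs1, of sterol synthesis, near 4833420G17Rik (-0.72 ± 0.16). They were named after their values were seen.

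**Figure D4:**
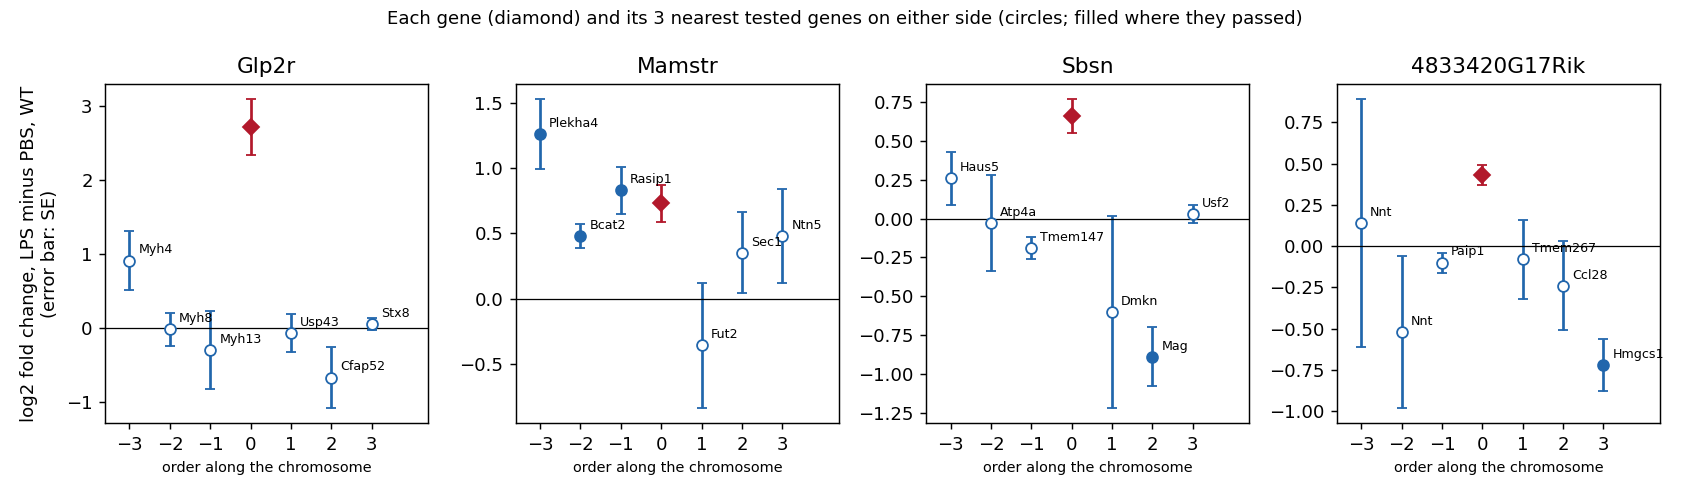
Log2 fold change of WT LPS over WT PBS (y axis; error bar, SE) for each of the 4 genes (diamond) and the 3 nearest tested genes on either side in their order along the chromosome (circles, filled where the adjusted p was under 0.05). Genes that overlap 1 of the 4 are left out. The 3 genes before Mamstr are filled and positive, from 0.48 for Bcat2 to 1.26 for Plekha4, and the nearest neighbours of the other 3 genes are open.

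The genes whose profile over the 16 libraries was most like each of the 4 were found from the root mean square difference of log2 CPM after each gene was centred on its own mean. They were picked for likeness to genes that were themselves chosen, so they carry no test. Nearest to Glp2r were Ifitm1, an interferon-induced membrane protein (0.487), Tubb6, a beta-tubulin (0.499), and Clec4a3, a C-type lectin receptor (0.529), where the median over all tested genes was 1.21. Ifitm1 had a mean of 1.15 CPM in KO LPS, 9.24 CPM in WT LPS, 1.35 CPM in KO PBS and 1.24 CPM in WT PBS. In the lowest WT LPS library it had 2.5 CPM, above the 2.1 CPM of the highest PBS library. Tubb6 and Clec4a3 did not separate in this way. Their lowest WT LPS libraries held 0.886 and 0.702 CPM, below the 1.28 and 0.738 CPM of their highest PBS libraries. Nearest to Mamstr were Klhdc9, a kelch domain gene (0.144), the processed pseudogene Gm46223 (0.155), whose reads can be divided with its parent gene, and Sbno2, a transcriptional coregulator (0.161), against a median of 0.416.

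Nearest to Sbsn were Gfpt2, an enzyme of the hexosamine pathway (0.119), Slc25a28, the mitochondrial iron carrier mitoferrin-2 (0.122), and Timm44, a part of the mitochondrial protein import motor (0.123), against a median of 0.346. Nearest to 4833420G17Rik were Gnl2, a nucleolar GTPase (0.0912), Cnnm3, of a family tied to magnesium transport (0.0941), and Rnf31, the catalytic subunit of the linear ubiquitin ligase LUBAC (0.0973), against a median of 0.265. Gfpt2, for example, averaged 4.85 CPM in KO LPS, 7.84 CPM in WT LPS, 5.84 CPM in KO PBS and 5.19 CPM in WT PBS, and Gnl2 44.3, 55.2, 45.6 and 44.3 CPM in the same groups. Among the 4 themselves, Sbsn was the 14th nearest gene to Mamstr (0.2) and 4833420G17Rik the 34th nearest to Sbsn (0.161). In the other direction Mamstr was the 295th nearest to Sbsn, and Sbsn the 886th and Mamstr the 7085th nearest to 4833420G17Rik. Mamstr was only the 584th nearest gene to Glp2r (0.968), and 4833420G17Rik the 975th (1.04). Glp2r itself was the 15623rd nearest to Mamstr, the 15731st to Sbsn and the 15784th to 4833420G17Rik. The measure was not scaled to the size of each gene's change, so that size enters it.

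The receptors and ligands of the glucagon and secretin family, to which Glp2r belongs, did not pass in the fit of all 16 libraries. Of 19 in the list, 13 were tested, and 0 passed in any of the 4 comparisons by edgeR. In WT LPS against WT PBS, 3 had an unadjusted p under 0.05 and 1 passed by DESeq2. There 1 passed in 8 of 25 alternative settings, among them without WT PBS replicate 1 or 4, WT LPS replicate 1, 2 or 4, or KO PBS replicate 4. Without WT LPS replicate 4, 1 passed in KO LPS against WT LPS. Gcg, the gene of the precursor of GLP-2, was not among the genes of the table. The receptor gene of the sister hormone GLP-1, Glp1r, differed by -0.20 ± 0.35 (adjusted p = 0.774, edgeR), and Dpp4, the peptidase that cleaves both hormones, by -0.19 ± 0.34 (adjusted p = 0.783). The list's median log2 fold change was -0.06 in wild type, beside 0.00 over all genes tested.

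Below the receptor, 1 of 24 tested genes of cAMP signalling passed in wild type, where 4.72% of all genes passed and were higher and 3.85% passed and were lower. The count ran from 0 to 6 over single libraries left out, with 6 without WT LPS replicate 1. In KO LPS against WT LPS, 1 passed, and 7 without WT LPS replicate 1. Adcy4, an adenylyl cyclase, was higher in WT LPS than in WT PBS libraries (1.07 ± 0.31, adjusted p = 0.0425, edgeR) and lower in KO LPS than in WT LPS libraries (-1.40 ± 0.31, adjusted p = 0.0116). It averaged 2.55 ± 0.68 CPM in KO LPS and 6.76 ± 3.24 CPM in WT LPS, and 3.12 ± 0.8 CPM in KO PBS and 3.23 ± 0.488 CPM in WT PBS (SD, n = 4 each). The list's median was -0.05 in wild type. Of 9 tested genes known as mediators of GLP-2 in the gut, 1 passed: Nos3, the endothelial nitric oxide synthase, with 0.82 ± 0.23 in WT LPS against WT PBS (adjusted p = 0.0377, edgeR) and -1.15 ± 0.23 in KO LPS against WT LPS (adjusted p = 0.00741). The list's median was -0.01. The wild-type calls were not stable: that of Adcy4 was lost in 13 and that of Nos3 in 9 of 25 alternative settings, among them leaving out WT PBS replicate 2, 3 or 4 or WT LPS replicate 2, 3 or 4, with an adjusted p of up to 0.15 and 0.16. The call of Adcy4 was also lost without KO PBS replicate 1 or 3 or KO LPS replicate 1 or 4 (adjusted p 0.0515 to 0.0532). The calls between KO LPS and WT LPS were lost with only the 8 libraries compared (adjusted p = 0.0648 for Adcy4 and 0.0568 for Nos3).

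Among the MEF2 factors and their coregulators, the partners of Mamstr, 1 of 15 tested genes passed in wild type. The count ran from 0 to 3 over single libraries left out, with 3 without WT PBS replicate 4 and 2 without WT LPS replicate 1. It was 1 in KO LPS against WT LPS, and 0 to 2 over single libraries left out. Hdac9, a histone deacetylase that represses MEF2, averaged 49.3 ± 2.24 CPM in KO LPS and 35.7 ± 7.49 CPM in WT LPS, and 41.2 ± 2.91 CPM in KO PBS and 47.8 ± 6.38 CPM in WT PBS (SD, n = 4 each). It fell in WT LPS against WT PBS (-0.42 ± 0.12, adjusted p = 0.0476, edgeR) and was higher in KO LPS than in WT LPS (0.47 ± 0.12, adjusted p = 0.0261). The first of these calls was lost in 19 and the second in 6 of 25 settings, with an adjusted p of up to 0.194 and 0.0876. The first was lost on leaving out each library other than WT PBS replicate 4 and WT LPS replicate 1. The list's median was 0.06 in wild type. Over all genes tested, 4.72% passed and were higher in WT LPS than in WT PBS libraries, and 3.85% passed and were lower. Of 12 tested genes of skeletal muscle, 0 rose and 2 fell in WT LPS against WT PBS libraries. They were Tnnt1, a troponin of slow muscle (-3.50 ± 0.78, adjusted p = 0.0145), and Atp2a1, the calcium pump of fast muscle (-2.87 ± 0.83, adjusted p = 0.0441). Neither call held without WT LPS replicate 3, where 0 of the 12 passed, and 1 of them held without WT PBS replicate 2 or 3, WT LPS replicate 2, KO PBS replicate 1 or 3, or KO LPS replicate 1 or 3. Tnnt1 is also in the list of markers of neighbouring brain regions described below.

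The other genes of stratified epithelium, the tissue suprabasin is known from, did not pass in the fit of all 16 libraries. Of 21 genes of stratified epithelium, 7 were not in the table, among them Krt14, Krtdap, Ivl and Flg, which mark epidermal layers, and 9 were tested. Of these, 0 passed in any comparison by edgeR, with 1 at an unadjusted p under 0.05 in WT LPS against WT PBS and 0 passing by DESeq2 there. The count was 1 in 14 of 25 alternative settings in WT LPS against WT PBS, among them without WT PBS replicate 1 or 4, WT LPS replicate 1 or any single KO library. It was 1 or 2 in 13 of 25 settings in KO LPS against WT LPS, with 2 when no filter was used and 1 without any single WT PBS or KO PBS library, WT LPS replicate 1 or KO LPS replicate 1. The summed level of the list was 18.1 to 23.3 CPM in KO LPS libraries, 18.7 to 20.4 CPM in WT LPS libraries, 17.9 to 21.9 CPM in KO PBS libraries and 17.9 to 20.5 CPM in WT PBS libraries, so the 4 groups overlapped.

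Markers of several cell types moved with the WT LPS group too, and their part in the values of the 4 genes was not tested. Over all genes tested, 4.72% passed and were higher in WT LPS than in WT PBS libraries, and 3.85% passed and were lower. With only the 8 wild-type libraries fitted, 0 genes passed, so the calls below rest on the spread of all 16 libraries. Of 10 ependymal genes and of 11 genes of hippocampal neurons, 0 passed in WT LPS against WT PBS. In bulk RNA, fewer cells of a type and less RNA per cell cannot be told apart. Of 10 oligodendrocyte genes, 7 passed and were lower in WT LPS than in WT PBS libraries and 0 were higher, and the list summed to 7070 to 7750 CPM in KO LPS, 3430 to 8170 CPM in WT LPS, 6660 to 8400 CPM in KO PBS and 6870 to 9080 CPM in WT PBS libraries. Of 25 tested markers of regions next to the hippocampus, 8 were lower and 0 higher, and the whole list summed to 1050 to 1670 CPM in KO LPS, 734 to 899 CPM in WT LPS, 665 to 1830 CPM in KO PBS and 883 to 2190 CPM in WT PBS libraries. Of 16 leukocyte genes only 6 were expressed highly enough to be tested, and 3 of those rose. A gene could pass the filter through its level in WT LPS libraries alone, so a rise among the tested ones carries no weight. All 16 summed to 1.58 to 3.49 CPM in KO LPS, 3.21 to 19.2 CPM in WT LPS, 1.23 to 2.14 CPM in KO PBS and 1.86 to 2.64 CPM in WT PBS libraries. Of 10 endothelial genes, 1 rose and 3 fell, with sums of 301 to 348 CPM in KO LPS, 318 to 423 CPM in WT LPS, 293 to 335 CPM in KO PBS and 340 to 438 CPM in WT PBS libraries. Of 12 microglial genes, 3 rose and 1 fell, of 10 astrocyte genes 2 rose and 1 fell, of 10 mural cell genes 0 rose and 2 fell, and of 11 tested genes of meningeal fibroblasts 1 rose. Microglial genes summed to 356 to 427 CPM in KO LPS, 336 to 615 CPM in WT LPS, 359 to 401 CPM in KO PBS and 331 to 399 CPM in WT PBS libraries. Astrocyte genes summed to 4370 to 4840 CPM in KO LPS, 4510 to 5540 CPM in WT LPS, 4420 to 4630 CPM in KO PBS and 4150 to 4770 CPM in WT PBS libraries. Mural cell genes summed to 201 to 244 CPM in KO LPS, 163 to 245 CPM in WT LPS, 220 to 257 CPM in KO PBS and 251 to 301 CPM in WT PBS libraries. Fibroblast genes summed to 563 to 820 CPM in KO LPS, 964 to 1130 CPM in WT LPS, 548 to 772 CPM in KO PBS and 579 to 1050 CPM in WT PBS libraries. Of 7 tested red cell genes, 0 passed by edgeR and 6 had an unadjusted p under 0.05, with a median log2 fold change of -2.60 beside 0.00 over all genes. The red cell list summed to 211 to 411 CPM in KO LPS, 213 to 321 CPM in WT LPS, 227 to 425 CPM in KO PBS and 305 to 1040 CPM in WT PBS libraries. Choroid plexus genes set WT LPS replicate 1 and WT PBS replicate 1 apart from the others, with mean log2 levels of -3.92 and -3.64 relative to the WT PBS mean. The 12 choroid plexus genes summed to 1390 to 3330 CPM in KO LPS, 146 to 1780 CPM in WT LPS, 1370 to 3450 CPM in KO PBS and 176 to 4780 CPM in WT PBS libraries, and 0 passed in WT LPS against WT PBS by edgeR, with 2 at an unadjusted p under 0.05.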

How the data were processed

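Values are estimated counts per gene, deposited by the authors as whole numbers. The submitters' processing notes list the tools Salmon 1.9.0, MultiQC 1.13, DESeq and DESeq2, with no role or order. RNA was extracted with an RNeasy mini plus kit and libraries made with NEBNext Ultra, per the labels' protocols. The sources used here give no genome build. Each listed gene had a sum of at least 10, and 105 identifiers, with 0.0537% of the counts, had no entry in the GENCODE M21 annotation (GRCm38) used for names and positions.

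The filter on low counts was filterByExpr in edgeR 4.0.16, run in R 4.3.3, and 16269 genes with 99.97% of all counts passed it. After TMM scaling, edgeR's quasi-likelihood model took all 16 libraries with a mean per group (biological coefficient of variation 0.177). P-values were adjusted by Benjamini-Hochberg over all genes at 0.05. The SE is the size of the log2 fold change over the square root of F. The 95% intervals are normal ones from it, narrower than the F test would give. CPM values rest on TMM-scaled totals, with a prior count of 2 before logs were taken.

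The members and lists were chosen with earlier results of these data known. Named are the 4 genes, list members that passed with the smallest p, the 3 genes most like each, the nearest tested gene outside the bounds on either side, and Tspo and Lcn2. Alternatives were RLE scaling, the DESeq2 1.42.0 test, no filter, CPM of at least 1 in 4 libraries, a replicate block, only the 8 libraries compared, and without each library or both that stand apart. A sum of WT PBS replicates 2 and 3, and sex read from Y-linked counts as a covariate, were added after seeing the data. Those replicates were the closest pair, yet differed by more than sampling noise (chi-square of 4.07 per degree of freedom). Errors come from the spread between libraries. Intervals do not cover duplicate reads, since no molecular identifiers are described.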

Additional observations from a re-analysis of the deposited data

Results flagged for a closer look

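Sbsn in KO LPS replicate 3 was 7.4 CPM, apart from the 8.63 to 8.76 CPM of the other KO LPS libraries. It was the only 1 of 16 groups (4 genes in 4 groups) with a library so far from the rest, and chance flags about 1 in 20.

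The fold change after LPS had opposite signs in the 2 genotypes for Mamstr and Sbsn. The KO change minus the WT change was -1.20 for Mamstr and -0.88 for Sbsn on the log2 scale, and in each gene every KO LPS library was below every KO PBS library while every WT LPS library was above every WT PBS library. Over all genes tested, every KO LPS library was below every KO PBS library in 571 (3.51%), and 0 passed in that comparison by edgeR. These values are therefore not evidence of a fall in the knockout. The difference was not tested, since both genes were chosen for a rise in wild type and none in the knockout.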

How the results depend on the processing

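Over 25 alternative settings, 399 of 400 fold changes of the 4 genes counted as unchanged. In KO PBS against WT PBS this meant the same direction and the same call. In the other comparisons it meant a shift smaller than the SD of log2 CPM within groups. Those comparisons contain the choice of the genes, and leaving out a library of a group not compared hardly moves them. The count of unchanged values is therefore a description and no test of their stability. The exception was Glp2r in KO PBS against WT PBS, at -0.01 without WT PBS replicate 4 and 0.71 without WT PBS replicate 1. The knockout change of Glp2r, counted as unchanged, was 0.0 without KO PBS replicate 2. The numbers of passing genes moved more. In WT LPS against WT PBS, 1394 passed, but 2096 by DESeq2, 0 with only the 8 libraries compared, 3271 without both libraries that stand apart, 670 with WT PBS replicates 2 and 3 summed, and 538 to 3380 without single libraries. Those that moved it over 1.5 times were WT LPS replicates 1 (3380), 2 (758), 3 (538) and 4 (694), and WT PBS replicates 2 (625) and 3 (621). In KO LPS against KO PBS, 0 passed, but 3 by DESeq2 and 0 to 1 without single libraries (1 without KO PBS replicate 4). In KO LPS against WT LPS, 1935 passed, but 438 with only the 8 libraries compared (219 higher and 219 lower, against 750 and 1185), 3907 without both libraries that stand apart, and 858 to 4005 without single libraries, those that moved it over 1.5 times being WT LPS replicates 1 (4005), 2 (1088), 3 (858) and 4 (958) and KO LPS replicates 2 (1273) and 3 (1035). In KO PBS against WT PBS, 6 passed, but 17 by DESeq2, 1 with WT PBS replicates 2 and 3 summed, and 1 to 9 without single libraries (3, 1 and 1 without WT PBS replicates 1, 2 and 3). The replicate block gave 1069, 1619 and 3 in WT LPS against WT PBS, KO LPS against WT LPS and KO PBS against WT PBS. Same-numbered libraries correlated from -0.232 to 0.364 in their deviations from the group means, which does not settle whether the numbers pair them. The causes were not tested. Mamstr rests on 46 to 156 counts a library, which limits its precision.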
